A study of Mus musculus with 12 samples.

Results

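The regions described are the chromatin immunoprecipitation peaks that lie next to the centromeres, on unplaced sequence or on the mitochondrial genome. They were taken by position alone from 6 deposited peak lists: every peak on chromosome M, every peak on a sequence other than chromosomes 1 to 19, X and Y, and every peak on chromosomes 1 to 19 that ends at or below 5 Mb. The rule gave 884 of 46669 peaks, of which 9 were mitochondrial, 123 unplaced and 752 near-centromere. MC3T3-E1, a mouse osteoblast line, was immunoprecipitated with an anti-MACF1 antibody in 3 libraries from MACF1 knockdown cells and 3 libraries from control cells. Each immunoprecipitate had its own input, so 12 samples made 4 groups of 3, and the labels of the libraries were 1, 2 and size3 in each group. What size3 stands for, how the knockdown was made and which antibody lot went into which library are not given in the sources used here. No label states separate cultures, so p-values speak only of the spread between these libraries.

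MACF1 is a spectraplakin, a large protein of the cytoskeleton that joins actin filaments to microtubules. Mouse autosomes carry their centromere at one end, at the low coordinates of the assembly, where arrays of satellite repeats are largely missing from the assembled sequence and the first assembled bases border on repeats and segmental duplications. Unplaced scaffolds are assembled pieces without a position on a chromosome and are often rich in repeats. The mitochondrial genome is a small circle present in many copies per cell. Reads from such sequence can pile up without a bound protein when the assembly holds fewer copies than the cell, and whether a peak marks protein on DNA there was not tested.

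The 6 lists held 21398, 4513 and 17592 peaks in knockdown 1, 2 and size3, against 772, 198 and 2196 in control 1, 2 and size3. After duplicate removal the immunoprecipitates held 18454330, 5575205 and 8175173 reads in knockdown 1, 2 and size3, against 26196138, 33085606 and 10698067 reads in control 1, 2 and size3. Their redundant rate was 0.51, 0.65 and 0.02 in the knockdown libraries, against 0.25, 0.16 and 0.01 in the control libraries, and their read length was 121, 111 and 146 bp against 121, 131 and 147 bp. Knockdown 2 was the most duplicated library and held the fewest reads after duplicate removal. Before it, knockdown 2 had 15731693 reads, more than the 8348486 of knockdown size3 and the 10844070 of control size3. In the set knockdown 2 did not share its sites with the other knockdown libraries, although 44 and 24 of its 4332 other peaks overlapped knockdown 1 and knockdown size3. No peak of the set in knockdown 2 overlapped one in knockdown 1 or in knockdown size3, while 68 of its 181 overlapped a control peak. The group differences in number, share and reads are therefore also given without knockdown 2.

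The sequences that could be shown are promoter windows. The reference tables held no genome, so the sequences of the repeat-bordering, unplaced and mitochondrial peaks were not analysed here. The first 4 windows below lie under near-centromere peaks of both knockdown 1 and knockdown size3, and the last, at Krit1, lies under a peak of knockdown 1 that overlaps a peak of control size3. They are shown because 13.7% and 14.9% of near-centromere summits of knockdown 1 and knockdown size3, a minority, lay within 1 kb of a start. In knockdown 2, control 1 and control 2 the share was 0.855%, 0% and 0%, and in control size3 it was 10.7%. The other peaks of the lists differed in the same way, with 14.1%, 0.977% and 11.1% in knockdown 1, 2 and size3, against 0.713%, 0% and 4.21% in the control libraries. Each runs 5′ to 3′ on the strand of the gene, which is the plus strand in all 5, from 250 bases before to 50 bases after a start, as given by RefSeq for GRCm38.p6. Capitals mark the GC box GGGCGG, the E-box CAGNTG and the E2F-type motif TTTNNCGC on either strand.
Sephs1, chr2:4881977-4882276: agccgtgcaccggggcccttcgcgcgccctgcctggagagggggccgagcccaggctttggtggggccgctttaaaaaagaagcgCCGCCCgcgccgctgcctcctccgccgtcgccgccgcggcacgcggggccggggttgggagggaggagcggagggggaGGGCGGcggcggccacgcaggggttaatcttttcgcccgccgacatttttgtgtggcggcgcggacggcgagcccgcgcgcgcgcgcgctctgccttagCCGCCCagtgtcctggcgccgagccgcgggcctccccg
Dtnb, chr12:3572452-3572751: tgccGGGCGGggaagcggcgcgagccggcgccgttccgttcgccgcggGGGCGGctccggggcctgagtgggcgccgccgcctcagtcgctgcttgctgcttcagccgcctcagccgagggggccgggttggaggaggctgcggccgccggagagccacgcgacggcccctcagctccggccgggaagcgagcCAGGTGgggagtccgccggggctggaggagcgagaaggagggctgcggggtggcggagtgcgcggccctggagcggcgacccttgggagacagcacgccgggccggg
Map2k7, chr8:4238490-4238789: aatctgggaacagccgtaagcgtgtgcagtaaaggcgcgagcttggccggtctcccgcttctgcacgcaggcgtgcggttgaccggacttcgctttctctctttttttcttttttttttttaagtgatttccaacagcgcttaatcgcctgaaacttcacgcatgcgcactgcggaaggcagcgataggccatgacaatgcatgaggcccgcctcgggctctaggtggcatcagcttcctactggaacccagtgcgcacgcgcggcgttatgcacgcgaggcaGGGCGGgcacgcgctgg
Ccdc170, chr10:4482265-4482564: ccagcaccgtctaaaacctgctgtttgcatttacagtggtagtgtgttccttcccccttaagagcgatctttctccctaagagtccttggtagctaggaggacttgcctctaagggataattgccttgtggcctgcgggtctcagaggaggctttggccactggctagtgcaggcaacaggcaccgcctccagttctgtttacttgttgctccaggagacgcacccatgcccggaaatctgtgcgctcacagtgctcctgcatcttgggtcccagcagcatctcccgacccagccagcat
Krit1, chr5:3802931-3803230: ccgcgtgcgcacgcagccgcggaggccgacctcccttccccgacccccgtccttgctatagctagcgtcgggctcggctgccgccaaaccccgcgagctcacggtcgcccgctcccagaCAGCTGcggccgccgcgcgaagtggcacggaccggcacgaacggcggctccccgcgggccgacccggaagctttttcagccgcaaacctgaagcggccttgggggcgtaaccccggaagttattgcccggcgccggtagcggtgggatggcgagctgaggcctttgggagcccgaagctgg

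The windows of Sephs1, which makes an enzyme related to selenophosphate synthetases, and of Dtnb, which makes beta-dystrobrevin of the dystrophin complex, were 76.3% and 78.7% G and C, with 47 and 42 CpG dinucleotides and with 3 and 2 GC boxes. The window of Map2k7, a kinase upstream of JNK, was 58% G and C with 29 CpG and 1 GC box. The window of Ccdc170, a coiled-coil protein of the Golgi, was 55.7% G and C with 8 CpG and none of the 3 marked motifs. The window of Krit1, a protein of endothelial junctions, was 72% G and C with 42 CpG, 1 E-box and no GC box. The 5 windows thus ran from rich to moderate in CpG and did not share a marked motif.

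In number, the set was larger in every knockdown library than in any control library. Knockdown 1, 2 and size3 held 303, 181 and 253 such peaks, against 63, 55 and 29 in control 1, 2 and size3. The groups did not overlap, with a mean of 246 ± 61.3 in knockdown and 49 ± 17.8 in control libraries (SD, n = 3 each). The log2 difference of 2.34, a 5.07-fold difference of geometric means after adding 1, had an exact two-sided permutation p of 0.1, the smallest that 3 against 3 libraries can give, and 0.15 after Benjamini-Hochberg adjustment over 3 comparisons. Libraries of the same label differed 4.81-fold (label 1), 3.29-fold (label 2) and 8.72-fold (size3). Without knockdown 2 the log2 difference was 2.55. The other peaks of the lists did not overlap between the groups either. They numbered 21095, 4332 and 17339 in knockdown 1, 2 and size3, against 709, 143 and 2167 in control 1, 2 and size3. The set was 1.42%, 4.01% and 1.44% of the knockdown lists, against 8.16%, 27.8% and 1.32% of the control lists. Peaks of the set and other peaks thus both numbered more in every knockdown library than in any control library. Within the control group the number did not follow the list, as control size3 had the most other peaks and the fewest of the set. The part of depth, duplicates and read length in the difference of the set was not tested.

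The 3 classes were not alike. Near-centromere peaks numbered 297, 119 and 251 in knockdown 1, 2 and size3, against 34, 22 and 29 in control 1, 2 and size3. In number, every knockdown library was thus above every control library. As a share of the list they were 1.388%, 2.637% and 1.427% in the knockdown libraries, against 4.404%, 11.11% and 1.321% in the control libraries. This share was lower in knockdown than in control for labels 1 and 2, and slightly higher for size3. The difference of the mean shares, knockdown minus control, was -3.79 percentage points with an exact permutation p of 0.4. Unplaced peaks numbered 6, 57 and 2 in the knockdown libraries, against 27, 31 and 0 in the control libraries. Mitochondrial peaks numbered 0, 5 and 0 in the knockdown libraries, against 2, 2 and 0 in the control libraries. In the unplaced and mitochondrial classes the groups overlapped, and the libraries with peaks were mainly knockdown 2, control 1 and control 2. The near-centromere class had a log2 difference in number of 2.85 with an exact permutation p of 0.1, or 0.3 after adjustment over 6 class comparisons, and the unplaced and mitochondrial classes each had a p of 1.

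**Figure D1:**
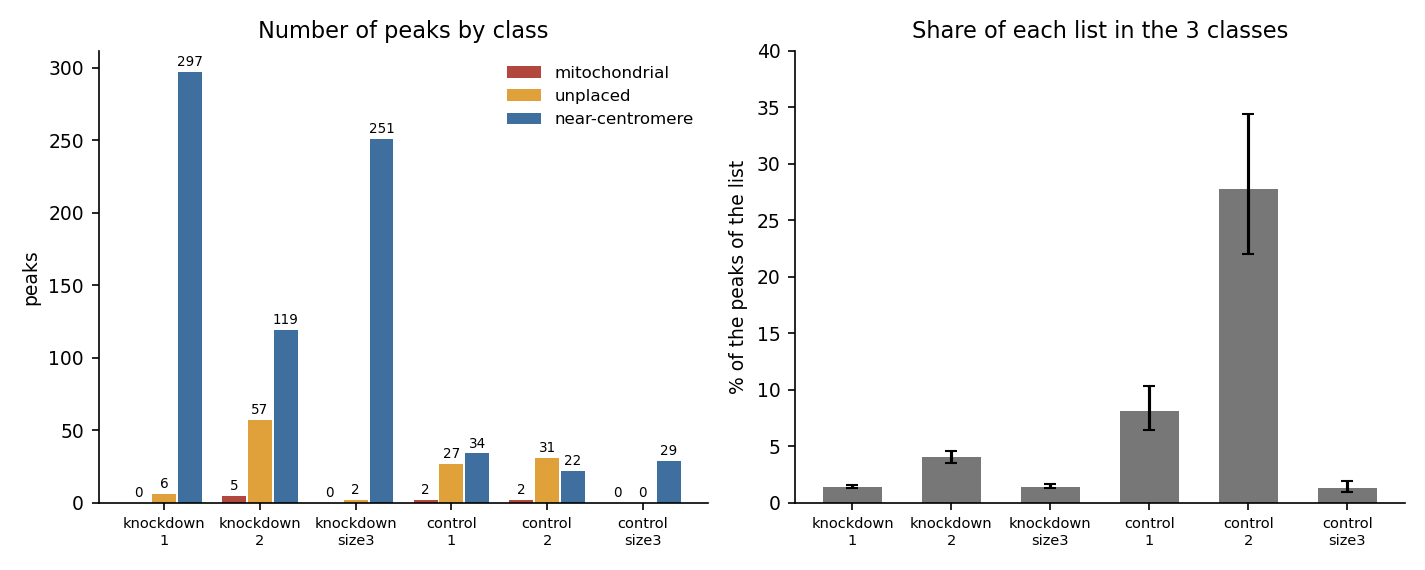
Number of peaks of each class in each library (left, peaks) and the share of each list in the 3 classes together (right, percent of the peaks of the list, bars with Wilson 95% intervals), with knockdown libraries left of control libraries. The near-centromere bars of the 3 knockdown libraries, 119 to 297 peaks, stand above the 22 to 34 of the control libraries, while the highest share, 27.8%, is that of control 2.

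As a share of the list, the order of the groups was different. The set made up 1.42%, 4.01% and 1.44% of the peaks in knockdown 1, 2 and size3, with Wilson 95% intervals of 1.27% to 1.58%, 3.48% to 4.62% and 1.27% to 1.62%. It made up 8.16%, 27.8% and 1.32% in control 1, 2 and size3, with intervals of 6.43% to 10.3%, 22% to 34.4% and 0.921% to 1.89%. These intervals cover counting error only. The 3 libraries with mitochondrial peaks had the highest shares, whichever group they belonged to. The mean share was 2.29% ± 1.49 in knockdown and 12.4% ± 13.7 in control libraries (SD, n = 3 each), a difference of -10.1 percentage points with an exact two-sided permutation p of 0.4. By label, the difference was -6.74 points (label 1), -23.8 points (label 2) and 0.118 points (size3). It was -11.0 points without knockdown 2, -2.45 points without control 2 and -15.7 points without control size3, so much of the mean difference came with the short list of control 2.

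Peaks per Mb of near-centromere window were set beside peaks per Mb on the rest of chromosomes 1 to 19, over 32.7 Mb of window counted from the lowest peak start of each chromosome. Bases below the lowest peak were thus left out of the window, which raises the ratios. Chromosome 14, with its lowest peak at 6282668, added no length to the window. The ratio of window to rest was 1.03, 2.01 and 1.05 in knockdown 1, 2 and size3, against 3.49, 11.5 and 0.968 in control 1, 2 and size3. By this measure, in knockdown 1, knockdown size3 and control size3 the window was about as densely covered as the rest of the chromosomes. The excess lay in knockdown 2, control 1 and control 2.

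The reads in these peaks were compared as RPM, reads in peaks for every 1000000 reads of the immunoprecipitate after duplicate removal. The set held 1368, 2572 and 715 RPM in knockdown 1, 2 and size3, against 515, 438 and 51.5 in control 1, 2 and size3. All knockdown libraries were above all control libraries, with a mean of 1552 ± 942 in knockdown and 335 ± 248 in control libraries (SD, n = 3 each). The log2 difference of 2.58, a 5.97-fold difference, had an exact two-sided permutation p of 0.1, the smallest possible, and 0.15 after adjustment over 3 comparisons. Libraries of the same label differed 2.66-fold (label 1), 5.87-fold (label 2) and 13.9-fold (size3). The log2 difference was 2.12 without knockdown 2 (exact permutation p = 0.3) and 1.52 without control size3 (p = 0.2), the library with the fewest such reads, and it was 3.16 without control 1 (p = 0.1). With a window up to 4 Mb it was 2.06 with an exact p of 0.4. These sums rest on regions called separately in each library: the covered length was 443, 110 and 207 kb in knockdown 1, 2 and size3, against 71.7, 79.6 and 21.1 kb in control 1, 2 and size3. The other peaks of the lists held 88321, 10013 and 44988 RPM in the knockdown libraries, against 972, 285 and 3604 in the control libraries. The groups did not overlap there either, so the higher reads in knockdown were not particular to the set.

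**Figure D2:**
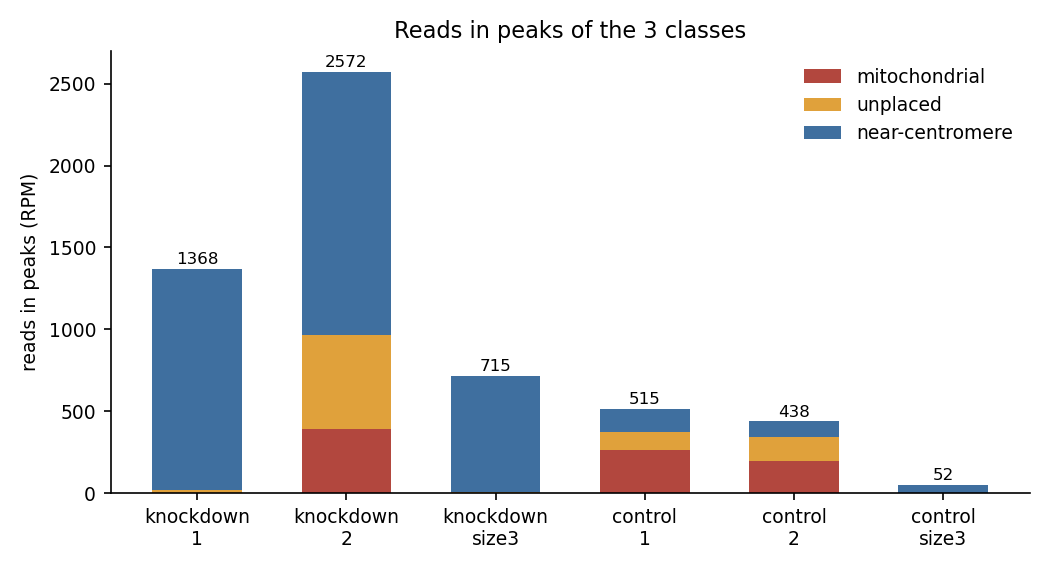
Reads in mitochondrial, unplaced and near-centromere peaks as RPM (reads for every 1000000 immunoprecipitate reads after duplicate removal), stacked by class, for the 3 knockdown libraries (left) and the 3 control libraries (right). Near-centromere reads fill nearly the whole bar of knockdown 1, knockdown size3 and control size3, while knockdown 2, control 1 and control 2 also hold unplaced and mitochondrial reads.

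Of all reads in peaks, the set took 1.53%, 20.4% and 1.56% in knockdown 1, 2 and size3, against 34.6%, 60.6% and 1.41% in control 1, 2 and size3. Most reads under the peaks of control 2 thus lay in these few regions, and its 2 mitochondrial peaks alone held 27.5%. In control 1 the 2 mitochondrial peaks held 17.9% of the reads in peaks, and in knockdown 2 the 5 mitochondrial peaks held 3.09%.

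Within each list, the set was set against the other peaks. The median peak of the set held more reads than the median other peak in 6 of 6 libraries, with log2 differences of 0.23, 0.53 and 0.08 in knockdown 1, 2 and size3 and of 1.34, 1.48 and 0.09 in control 1, 2 and size3. The mean was 0.63, or 1.54-fold, with an exact two-sided sign-flip permutation p of 0.03125, the smallest that 6 libraries can give, and 0.0625 after adjustment over 4 measures. The peaks were also wider in 5 of 6 libraries, by a mean of 0.11 on the log2 scale (exact permutation p = 0.0625, adjusted 0.0833). The median fold enrichment, the authors' ratio of reads to local input background, was higher in 3 of 6 libraries, by a mean of 0.07 (exact permutation p = 0.3125). None of these measures passed 0.05 after adjustment, and the large differences in reads lay in knockdown 2, control 1 and control 2.

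Each peak carries the authors' false discovery rate, the percentage of equally strong peaks found when immunoprecipitate and input were swapped. Over the whole lists, 98.9%, 1.13% and 57.8% of the peaks of knockdown 1, 2 and size3 had a rate of at most 5%, against 0.130%, 0% and 0% of those of control 1, 2 and size3. In the set this rate was reached by 300 of 303, 34 of 181 and 144 of 253 peaks in knockdown 1, 2 and size3, against 1 of 63, 0 of 55 and 0 of 29 in control 1, 2 and size3. In knockdown 1 and size3 these counts were 99.0% and 56.9%, close to the whole lists. In knockdown 2 the set supplied 34 of the 51 peaks that reached it, or 66.7% (Wilson 95% interval 53.0% to 78.0%), although it supplied 4.01% of the list. The single such peak of control 1 was also in the set, the mitochondrial peak from 1 to 4869. A rate of 100% was given to 137 of 181 peaks of the set in knockdown 2 (75.7%), against 62 of 63 in control 1 and 55 of 55 in control 2. Of the other peaks it was given to 4302 of 4332 in knockdown 2 (99.3%), against 708 of 709 in control 1 and 143 of 143 in control 2, so the set stood below its list in knockdown 2 and close to it in the controls.

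Merging overlapping peaks of the set over all libraries gave 740 sites, of which 2 were mitochondrial, 67 unplaced and 671 near-centromere. Of these, 90 sites, or 12.2% (Wilson 95% interval 10.0% to 14.7%), were called in 2 or more libraries and 37, or 5%, in 3 or more. Over all 44202 merged regions of the 6 lists, 5.13% were called in 2 or more libraries and 0.199% in 3 or more. Both mitochondrial sites were called in 3 libraries. Of the unplaced sites 30 of 67 were called in 2 or more libraries, and of the near-centromere sites 58 of 671. Of the 88 regions of the whole series called in 3 or more libraries, 37, or 42.0%, belonged to the set.

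The recurrent sites fell almost wholly into 2 combinations of libraries. Knockdown 2, control 1 and control 2 shared 36 sites, of which 2 were mitochondrial, 19 unplaced and 15 near-centromere, and 8, 8 and 3 further sites were shared by knockdown 2 with control 1, by knockdown 2 with control 2 and by both controls. Knockdown 1 and knockdown size3 shared 32 sites, of which 31 were near-centromere. Only 3 of the 90 sites lay outside these combinations, and each of them involved control size3. The 36 sites were 59.0% of the 61 regions that knockdown 2, control 1 and control 2 shared in the whole series, while the 32 sites were 1.66% of the 1929 regions of knockdown 1 and knockdown size3.

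Seen from each list, 54 of the 181 peaks of knockdown 2 (29.8%) overlapped a peak of control 1, and conversely 45 of 63 (71.4%) in control 1 did so with knockdown 2. With control 2 the counts were 59 of 181 (32.6%) and 45 of 55 (81.8%). Between the controls, 40 of 63 peaks of control 1 (63.5%) and 39 of 55 of control 2 (70.9%) overlapped. The peaks of either control thus overlapped those of knockdown 2 about as often as those of the other control. Between knockdown 1 and knockdown size3, 32 of 303 (10.6%) and 33 of 253 peaks (13%) overlapped.

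**Figure D3:**
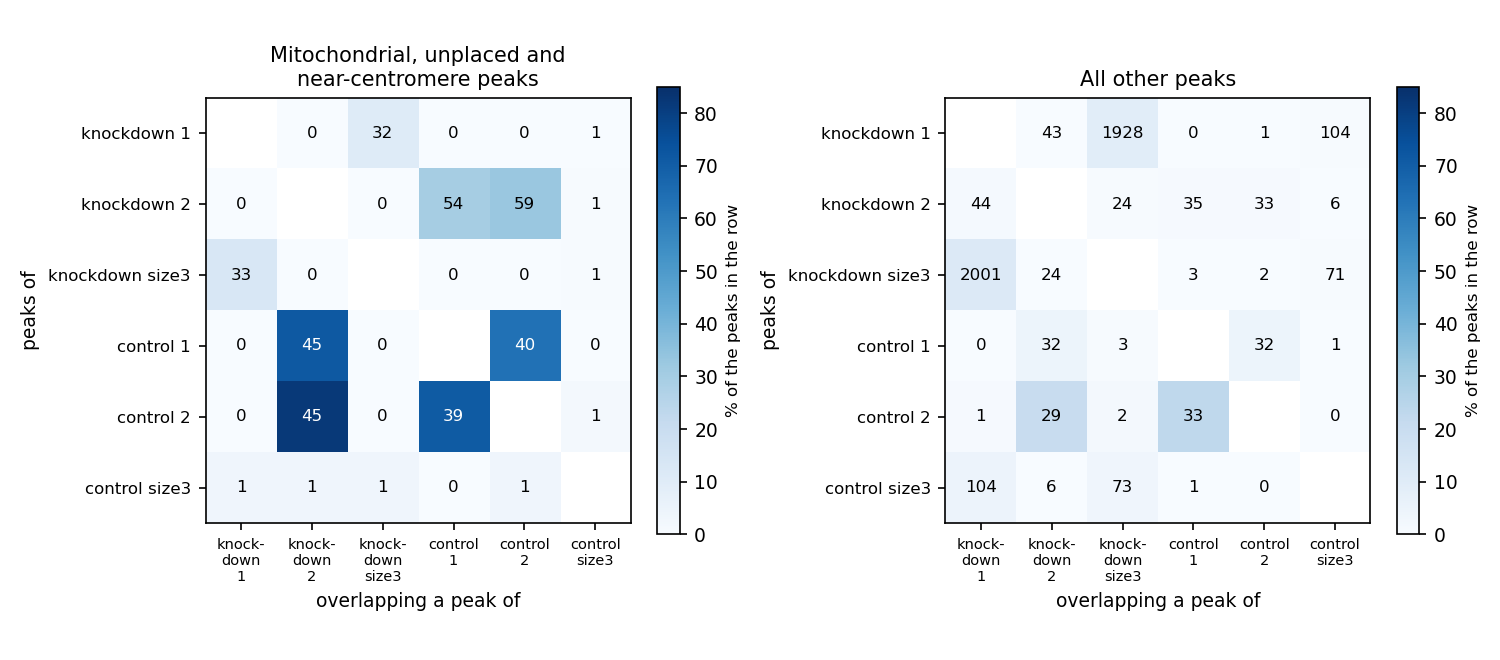
Number (printed) and percentage (colour) of the peaks of the library in each row that overlap a peak of the library in each column by at least 1 bp, for the mitochondrial, unplaced and near-centromere peaks (left) and for all other peaks (right). In the left panel the dark cells join knockdown 2, control 1 and control 2, and knockdown 1 and knockdown size3 share 32 and 33 peaks with each other and at most 1 with any other library.

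The share of peaks that overlapped a peak of any other library was 10.9%, 37.6% and 13.4% in the set in knockdown 1, 2 and size3, against 76.2%, 87.3% and 10.3% in control 1, 2 and size3. For all other peaks of the same lists it was 9.73%, 2.52% and 12% in knockdown 1, 2 and size3, against 6.06%, 27.3% and 7.94% in control 1, 2 and size3. The set was shared more often in 6 of 6 libraries, by a mean of 28.4 percentage points (exact two-sided sign-flip permutation p = 0.03125, the smallest possible, adjusted 0.0625 over 4 measures), which did not pass 0.05. The difference was 1.16, 35.1 and 1.43 points in knockdown 1, 2 and size3 and 70.1, 60.0 and 2.41 points in control 1, 2 and size3. It was thus large in the same 3 libraries as before, and a shared site enters the value of both its libraries, so the 6 values are not fully independent.

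The mitochondrial peaks lay in 2 blocks of the circle, the first much alike and the second of unequal extent in the 3 libraries that had them. Knockdown 2 had 5 peaks, at 1 to 1634 with 474 reads and a 5.12-fold enrichment, at 1768 to 4771 with 868 reads and 5.00-fold, at 10934 to 12769 with 507 reads and 6.73-fold, at 13408 to 14056 with 42 reads and 13.7-fold, and at 14674 to 15722 with 276 reads and 59.6-fold. Control 1 had 2 peaks, at 1 to 4869 with 5034 reads and 5.18-fold and at 10867 to 14332 with 1939 reads and 5.33-fold. Control 2 had 2 peaks, at 1 to 4992 with 4592 reads and 4.29-fold and at 10860 to 15246 with 1992 reads and 4.88-fold. Of the 5 peaks of knockdown 2, 4 overlapped a peak of control 1 and 5 overlapped one of control 2, and the second block ended at 15722 in knockdown 2, against 14332 in control 1 and 15246 in control 2. They held 389 RPM in knockdown 2, against 266 in control 1 and 199 in control 2. With 1 read kept per position, reads per covered base were 0.265 in knockdown 2, against 0.837 in control 1 and 0.702 in control 2. The part of depth and duplicate removal in these values was not tested. The zeros of the other 3 lists allow a mitochondrial share of up to 0.0140% of the peaks in knockdown 1 and 0.0171% in knockdown size3, against 0.137% in control size3.

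The 37 mitochondrial genes encode 13 proteins of the respiratory chain, 22 tRNAs and 2 rRNAs. Peaks touched 19 of the 37 genes in knockdown 2, against 18 in control 1 and 19 in control 2. The first block covered all or most of both rRNA genes and of ND1 and ND2, which encode subunits of complex I, and the second covered all or part of ND4, ND5 and ND6, also of complex I, and CYTB of complex III. No library had a peak between 4993 and 10859, a stretch of 5867 bp. It holds 16 genes whole, among them COX1, COX2 and COX3 of cytochrome oxidase, ATP6 and ATP8 of the ATP synthase, and ND3 and ND4L. CYTB was covered over 53.8% of its length in knockdown 2, against 16.4% in control 1 and 96.3% in control 2. The tRNA genes TrnT and TrnP were covered in knockdown 2 and in neither control. The 3 libraries thus left out the same contiguous stretch and differed at the far end of the second block.

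Unplaced peaks lay on 16 sequences, 12 of them with a peak of knockdown 2, 3 with one of knockdown 1 and 2 with one of knockdown size3, against 10 for control 1, 8 for control 2 and none for control size3. The scaffold JH584304.1 held the most, with 4, 28 and 1 peaks in knockdown 1, 2 and size3, against 9, 10 and 0 in control 1, 2 and size3. Its peaks held 300, 2262 and 24 reads in the knockdown libraries, against 1388, 1720 and 0 in the control libraries. Knockdown 2 thus had more reads there than either control although its library was the smallest after duplicate removal. GL456390.1 had 108 reads in knockdown 2, or 19.4 RPM, against 409 reads or 15.6 RPM in control 1 and 767 reads or 23.2 RPM in control 2. GL456396.1 had 238 reads in knockdown 2, or 42.7 RPM, against 360 reads or 13.7 RPM in control 1 and 875 reads or 26.4 RPM in control 2. Raw reads were thus lower in knockdown 2 on both, while RPM was not lower than in control 1. The gene table used here pairs no gene with these sequences, so they are named by the scaffold alone.

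The widest shared unplaced site lay on GL456396.1 between 11542 and 15770, with 47.6-fold enrichment and 180 reads in knockdown 2, against 6.56-fold and 175 reads in control 1 and 9.24-fold and 500 reads in control 2. The site with the most reads lay on JH584304.1 from 66084 to 69669, with 534 reads in knockdown 2, against 574 in control 1 and 830 in control 2. On the same scaffold the site between 103220 and 103997 reached 57.0-fold in knockdown 2, against 5.86 in control 1 and 8.21 in control 2, with 143 reads in knockdown 2, against 89 and 117. A fold is scaled to the input background of its own library, so folds of different libraries are given side by side and not compared. The single unplaced site of knockdown 1 and knockdown size3 lay on JH584304.1 from 26751 to 27274, apart from all of these, with 43 and 24 reads.

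Among the near-centromere sites shared by knockdown 2, control 1 and control 2, 10 of 15 lay in one stretch at the start of chromosome 9. The stretch runs over chr9:2999865-3038507, or 38643 bp, and holds 23 sites in all. It had 0, 28 and 0 peaks in knockdown 1, 2 and size3, against 15, 11 and 0 in control 1, 2 and size3, with 4913 reads in knockdown 2, against 2747 in control 1 and 2041 in control 2. That is 881 RPM in knockdown 2, against 105 in control 1 and 61.7 in control 2. The stretch held 54.8% of all near-centromere reads of knockdown 2, against 75.1% of those of control 1 and 66.0% of those of control 2. The median fold enrichment of its peaks was 32.2 in knockdown 2, against 5.99 in control 1 and 6.43 in control 2, and 16 of the 28 peaks of knockdown 2 had a false discovery rate of at most 5%. No gene lies inside it, and the nearest is the microRNA gene Mir101c, 162 bp beyond the last peak.

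The first site of the stretch, at 2999865 to 3001739, had 613 reads in knockdown 2, against 403 in control 1 and 460 in control 2. A site at 3021929 to 3023096 had 284 reads in knockdown 2, against 197 and 219, and the last, at 3037770 to 3038507, had 168, against 115 and 144. In these 3 sites, picked as examples, knockdown 2 had the most reads. Over all 10 sites the ratio of RPM in knockdown 2 over control 2 ran from 5.73 to 11.5. The near-centromere peak with the most reads in control 1, from 3025040 to 3027972, held 693 reads there and 1000 in knockdown 2, and no peak was called in control 2.

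Set against each other as RPM, the 36 shared sites had a median ratio of 6.39 for knockdown 2 over control 1 and of 4.96 for knockdown 2 over control 2, while control 2 over control 1 had a median of 1.04. The ratio differed by place. In the chromosome 9 stretch it was 6.38 to 8.58 over control 1 in 10 sites, and on JH584304.1 it was 4.37 to 7.55 in 7 sites. In the 5 sites at other chromosome starts the median was 2.42, on the other scaffolds it was 2.64 with a range of 0.708 to 7.42 over 12 sites, and in the 2 mitochondrial sites it was 1.25 and 2.00. Knockdown 2 was thus most above control 1 at chromosome 9 and JH584304.1, and it was at or below control 1 at single sites of GL456390.1 and GL456393.1. Across the 36 sites the reads correlated with a Spearman rho of 0.842 between knockdown 2 and control 1, 0.730 between knockdown 2 and control 2 and 0.916 between the controls. These values describe the sites, which share libraries and differ in width. Reads at a site were those in each library's own peaks, so the bases counted can differ between libraries at the same site. The median width of unplaced peaks was 430 bp in knockdown 2, against 964 bp in control 1 and 1199 bp in control 2. The part of peak extent in the ratios was not tested.

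**Figure D4:**
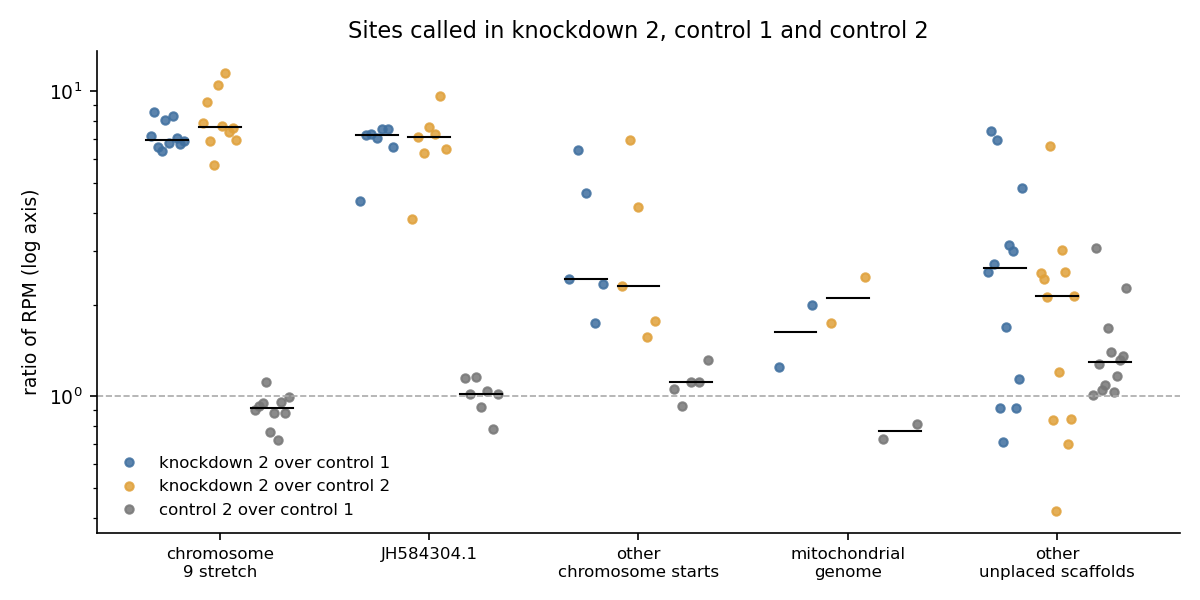
Ratio of RPM (log axis) at each of the 36 sites called in knockdown 2, control 1 and control 2, grouped by place, with 1 point per site, a short line at the median and a dashed line at 1. Reads at a site are those in each library's own peaks, which differ in extent. Knockdown 2 has 6.38 to 8.58 times the RPM of control 1 at all 10 chromosome 9 sites and scatters from 0.708 to 7.42 on the scaffolds other than JH584304.1, while control 2 over control 1 (grey) lies near 1 at most sites.

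The other near-centromere sites of knockdown 2, control 1 and control 2 were single. At chr2:3049941-3050853 the fold enrichment was 22.3 with 30 reads in knockdown 2, against 9.38 with 81 reads in control 1 and 18.9 with 114 reads in control 2, and the last value is the highest near-centromere fold of that list. At chr12:3109692-3110249 it was 21.5 with 255 reads in knockdown 2, against 3.87 with 187 reads and 4.75 with 219 reads. At chr16:3116034-3117058 it was 31.7 with 86 reads in knockdown 2, against 6.85 with 87 reads and 8.03 with 122 reads. Sites at chr4:3089263-3091469 and chr11:3100041-3100727 completed the 15, and all 15 lay outside protein-coding genes. At chr11:3100834-3102642 knockdown 2, control 2 and control size3 shared a site, the only one of the set with control size3 and 2 other libraries, with 22, 157 and 42 reads. The highest fold of the set in knockdown 2, 80.6, belonged to a peak of 31 reads at chr2:3964465-3964667, which also had a peak in control 2 with 9.54-fold and lies 53.0 kb from Frmd4a.

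How close the peaks lay to the first assembled bases differed between libraries. The first 0.25 Mb from 3 Mb, a bin picked with the values in view and described without a test, held 8 of 297, 52 of 119 and 8 of 251 near-centromere peaks in knockdown 1, 2 and size3, against 21 of 34, 18 of 22 and 4 of 29 in control 1, 2 and size3. It held 2.11%, 91.9% and 2.01% of their reads in the knockdown libraries, against 89.3%, 95% and 24% in the control libraries. In knockdown 2, control 1 and control 2 nearly all near-centromere reads were thus in the opening stretch, while in knockdown 1 and knockdown size3 the peaks were spread over the window up to 5 Mb. The peak of the set with the most reads in knockdown 2 was in the opening stretch too, at chr11:3184182-3200095 over Sfi1, a gene for a centrosome protein. It held 2608 reads over 15914 bp with a fold of 6.5.

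By chromosome, near-centromere peaks of knockdown 1, 2 and size3 numbered 46, 14 and 43 on chromosome 11, against 3, 2 and 4 in control 1, 2 and size3. On chromosome 19 they numbered 37, 5 and 38 in the knockdown libraries, against 2, 1 and 2, and on chromosome 12 they numbered 33, 11 and 32, against 1, 1 and 1. On chromosome 9 the order was different, with 2, 28 and 1 in the knockdown libraries, against 15, 11 and 0 in the control libraries. Chromosome 14 had no peak of the set in any library. Outside the window, chromosomes 1 to 19 together held 20848, 4283 and 17256 peaks in the knockdown libraries, against 705, 138 and 2166 in the control libraries. The groups did not overlap there either, so the higher counts on chromosomes 11, 19 and 12 are not particular to their starts.

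The near-centromere peaks of knockdown 1, knockdown size3 and control size3 had the shortest median distances to the transcription starts of the promoter table. Of the near-centromere summits, 72.5%, 41.0% and 70.6% lay in a protein-coding gene in knockdown 1, 2 and size3, against 20.6%, 9.09% and 39.3% in control 1, 2 and size3. A transcription start of the promoter table lay within 1 kb of 39 of 284, 1 of 117 and 37 of 248 summits in the knockdown libraries, against 0 of 34, 0 of 22 and 3 of 28 in the control libraries. For the other peaks of the same lists the share in a gene was 61.7%, 41.0% and 59.5% in the knockdown libraries, against 45.1%, 45.3% and 52.2% in the control libraries. The median near-centromere distance to a start was 13.7, 62.5 and 12.4 kb in knockdown 1, 2 and size3, against 154, 144 and 17.9 kb in control 1, 2 and size3. For the other peaks it was 18.1, 40.9 and 19.6 kb in the knockdown libraries, against 55.4, 45.1 and 23.1 kb in the control libraries. Near the centromere, control 1 and control 2 were thus farther from these starts and less often in genes than elsewhere, which was not tested. The chromosome 9 stretch held 15 of their 34 and 11 of their 22 near-centromere peaks, and 28 of 119 in knockdown 2. Distances in the stretch were 161617 to 199702 bp, so the start of Mir101c beside it was not among the starts used. The medians of control 1 and control 2 thus lean on that stretch. The rest of the same lists had a start within 1 kb of 14.1%, 0.977% and 11.1% of summits in the knockdown libraries, against 0.713%, 0% and 4.21% in the control libraries. Near the centromere the share was 13.7% in knockdown 1 and 14.9% in knockdown size3, and the difference from the rest of these lists was not tested.

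**Figure D5:**
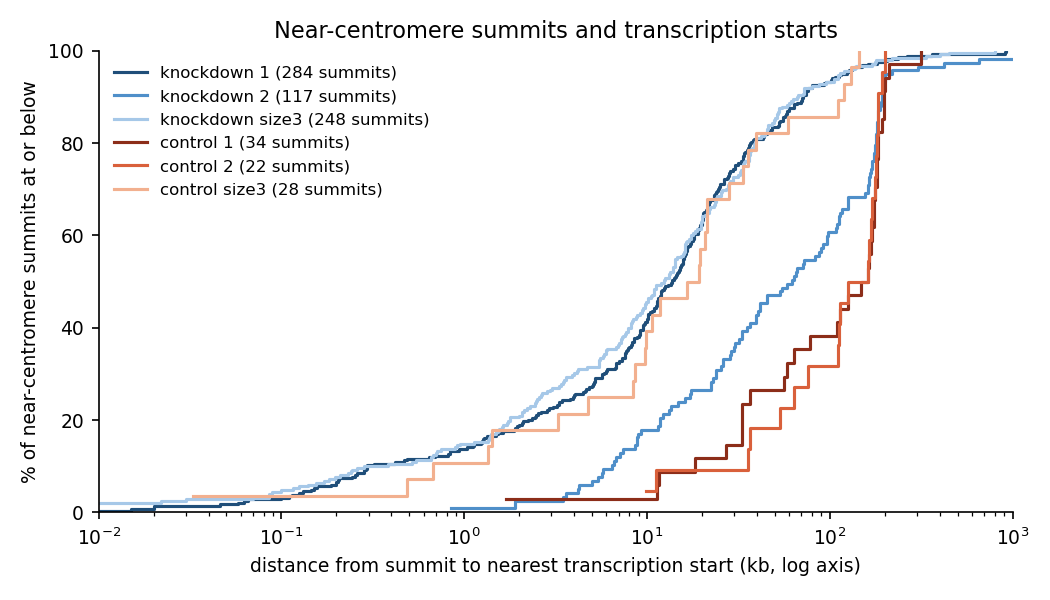
Cumulative percentage of near-centromere summits by distance to the nearest transcription start of the promoter table (kb, log axis) for the 3 knockdown libraries (blues) and the 3 control libraries (reds). The start of Mir101c, beside the chromosome 9 stretch, was not among these starts. The curves of knockdown 1, knockdown size3 and control size3 run together with medians of 12.4 to 17.9 kb, control 1 and control 2 lie far to the right with medians of 154 and 144 kb, and knockdown 2 lies between with 62.5 kb.

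Of the 540 protein-coding genes in the window, 173, 41 and 149 had a peak inside or at most 5 kb away in knockdown 1, 2 and size3, against 7, 2 and 18 in control 1, 2 and size3. Of 500 predicted genes with Gm or Rik symbols, 70, 19 and 70 had one in the knockdown libraries, against 3, 1 and 6 in the control libraries. None of the 27 vomeronasal and olfactory receptor genes of the window, receptors of sensory neurons that sit in repeat-rich clusters, had a peak within 5 kb in any library. The whole lists were also longer in every knockdown library than in any control library, and the share over genes outside the window was not counted. These counts therefore do not set the genes of the window apart from other genes.

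Of the 31 near-centromere sites shared by knockdown 1 and knockdown size3, 26 overlapped a protein-coding gene and 11 had a start of the promoter table within 1 kb. Of the 15 shared by knockdown 2, control 1 and control 2 none did either. These are counts of sites, while the shares above are of summits, so the values are not alike. The same shares over the 1929 and 61 regions that these combinations shared in the whole series were not counted. Over all 32 sites of the first pair the median was 103 reads and a 4.02-fold enrichment in knockdown 1 and 22 reads and 7.57-fold in knockdown size3. All 32 had a false discovery rate of at most 5% in knockdown 1, and 15 had in knockdown size3. Across these sites the reads of the 2 libraries correlated with a Spearman rho of 0.570, as a description over sites that differ in width.

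The sites at the promoters printed above belong here. At Sephs1 knockdown 1 had 130 reads and 3.40-fold and knockdown size3 had 12 reads and 6.41-fold, with summits 200 and 70 bp downstream of the start printed above. From another Sephs1 start the summits lay 411 and 541 bp upstream. At Dtnb these libraries had 173 reads and 3.26-fold and 24 reads and 7.56-fold, with summits 166 and 140 bp upstream of the printed start. From other Dtnb starts the summits lay 145 and 171 bp downstream, 125 and 151 bp downstream, or 448 and 422 bp upstream. At Map2k7 these libraries had 106 reads and 2.84-fold and 28 reads and 5.48-fold, with summits 416 and 116 bp downstream. At Ccdc170 they had 54 reads and 4.75-fold and 21 reads and 6.93-fold. In each the peak of knockdown size3 rested on at most 28 reads, which limits how firmly these sites can be taken as shared.

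Larger shared sites lay over Dnmt3a, a de novo DNA methyltransferase, with 357 reads in knockdown 1 and 41 in knockdown size3, over Nf2, the gene of the tumour suppressor merlin, with 280 and 18 reads, and over Acy3, an aminoacylase, with 509 and 68 reads. Itsn2, an endocytic scaffold protein, carried 3 of the 31 sites, and Adcy9, an adenylyl cyclase, carried one of 54 and 28 reads. The shared site at the start of Krit1 and Ankib1 had 160 reads and 4.15-fold in knockdown 1, against 15 reads and 8.57-fold in control size3, where its false discovery rate was 91.5%. The site at Nudt8 had 78 reads and 5.10-fold in knockdown size3, against 14 reads and 7.10-fold in control size3. Within its own list, the highest near-centromere fold of knockdown 1 was 12.6 at Cdk14, with 35 reads.

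Promoter windows of 300 bases gave a description of the starts involved. Of 619 such windows that end at or below 5 Mb, peaks of knockdown 1, 2 and size3 overlapped 64, 0 and 39, against 0, 0 and 1 for control 1, 2 and size3. The windows under knockdown 1 and knockdown size3 peaks had a median G and C content of 63.8% and 62% and a median of 21 and 23 CpG, against 53.3% and 7 CpG in the 526 windows under no peak. The GC box GGGCGG, searched on both strands, was in 68.8% and 56.4% of the windows under peaks of knockdown 1 and knockdown size3, against 35.4% of those under no peak and 35.7% of all 32851 windows of the table. The E-box CAGNTG was in 43.8% and 43.6%, against 56.5% under no peak and 51.4% of all windows, and CCAAT was in 23.4% and 30.8%, against 40.3% and 37.4%. TTTNNCGC was in 4.69% and 0%, against 3.99% and 5.17%, and CTTTGNT was in 9.38% and 15.4%, against 19% and 18.6%. The GC box can overlap other G- and C-rich motifs, and a match describes letters in the window and not a bound factor.

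At the limit of the rule, the last peaks inside ended at 4995259 on chromosome 7 and at 4997274 on chromosome 17, both in knockdown 1, with folds of 4.48 and 4.18 and 160 and 273 reads. The first outside ended at 5000540 on chromosome 3 in knockdown 2 and at 5001469 on chromosome 19 in knockdown size3, with folds of 13 and 5.36 and 8 and 55 reads.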

How the data were processed

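Per the submitters' processing notes, cutadapt, Bowtie2 and MACS 1.4.2 were used with the build GRCm38. Per the file headers, MACS set every immunoprecipitate against the input of the same label and made 1 list per library, with a p cutoff of 1e-05 and duplicates reduced to 1 read at a position. The deposited counts are whole reads in a peak. The deposited score is the -log10 p-value multiplied by 10, the deposited fold enrichment is a ratio to the local background, the deposited false discovery rate is in percent, and deposited widths and positions are in bp. Scores and folds are the authors' own and served to rank, filter and describe peaks of the same list.

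Members were taken by position, and peaks were joined into sites where they overlapped by at least 1 bp. Groups came from the sample labels. One value per library was compared by exact permutation over 20 assignments, and members against the rest of a list by sign flips over 6 libraries, with Benjamini-Hochberg adjustment. Counts and reads were compared as log2 values after adding 1. Gene positions, starts and promoter sequences came from RefSeq tables of GRCm38.p6, which hold no exons, no genome and no starts on chromosome 18. Of the listed genes, those on unplaced sequence were not used here, because the table names no scaffold. Named sites were, by rule, every mitochondrial peak, every site of 3 or more libraries, 10 further sites of 2 libraries and the strongest peaks of each library and class. The genes with printed promoters, the other genes named at sites of knockdown 1 and knockdown size3, the 0.25 Mb bin and the chromosome 9 stretch were picked after their values were seen. Not every item that the rule names is described. The members and lists were chosen with earlier results of these data known. The sorting into classes and the joining into sites were tested on simulated peaks, and the other steps were not. Python 3.11.15, pandas 2.3.3, scipy 1.17.1 and matplotlib 3.10.9 were used. Alternatives were other windows, classes, scores, overlaps and pseudocounts, medians, the label as a block, each library left out and, chosen after seeing the data, leaving out the chromosome 9 stretch and JH584304.1.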

Additional observations from a re-analysis of the deposited data

How the results depend on the processing

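With only mitochondrial and unplaced peaks, the log2 difference between knockdown and control libraries in reads turned to -0.11 (exact permutation p = 1) and that in number was 0.13, so both rest on the near-centromere class; the width difference turned to -0.10 (exact p = 0.8125), that in reads per peak was 0.86 and that in sharing 49.9 points (exact p = 0.0625 each, the smallest 5 libraries allow), and 32 recurrent sites were left. With only near-centromere peaks the fold difference turned to -0.0028 (exact p = 0.8125) and 58 recurrent sites were left. With a score of at least 100, the fold difference turned to -0.12 (exact p = 0.4375), reads per peak differed by 0.85 (exact p = 0.0625), sharing by 15.2 points (exact p = 0.4375), the group differences in number and reads had exact p of 0.4 and 0.6, and 34 recurrent sites were left. With a window up to 10 Mb, reads per peak differed by 0.29 (exact p = 0.25) and 164 sites recurred. Width differed by 0.16 with a window up to 4 Mb and by 0.35 with means (exact p = 0.03125 each). Leaving out each library gave log2 differences of 2.01 to 2.56 in number and 1.52 to 3.16 in reads, -15.7 to -2.45 points in share, 0.45 to 0.73 in reads per peak, 18.9 to 34.0 points in sharing, and 57 to 88 recurrent sites, with 57 without knockdown 1 or knockdown size3; 5 libraries cannot reach 0.05 within lists. Without the chromosome 9 stretch and JH584304.1, 61 sites recurred and sharing differed by 22.8 points. With the labels as a replicate block, the exact p was 0.25 for number and for reads, the smallest it allows, and 0.5 for share; the labels are not stated to pair libraries, and knockdown 2 shared its sites with both controls. The causes of these changes were not tested. With 3 libraries a group and lists that differ in depth and duplicates, group and library quality cannot be told apart.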
